A study of Mus musculus with 16 samples.

Results

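Whole brains of Slc5a8-deficient and wild-type mice were compared at 4 months of age, the younger of the ages in the series. The samples were chosen by title, 4 arrays of young deficient and 4 of young wild-type brain, which are 8 of the 16 arrays. The mice were male and of the strain C57BL/6J, the labels name no treatment, and each array carried total RNA from freshly removed whole brain, with no word on pooling. The other 8 arrays are the same genotypes at 18 months, 4 each, and entered the fit and the values set beside those at 4 months. The labels give the deficient mice by the gene alone, with neither the allele nor the deleted part of the gene, and do not say whether wild-type animals were littermates. Nothing in them says more about the animals behind the replicates, so a p-value measures only how these samples vary, which may be technical.

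Slc5a8 encodes a transporter that takes up lactate, pyruvate, ketone bodies and short-chain fatty acids together with sodium ions, best known from the kidney and the colon and described in neurons. In the brain, most traffic of the same monocarboxylates runs through the proton-coupled transporters of the Slc16 family in endothelium, astrocytes, oligodendrocytes and neurons. Lactate and ketone bodies feed the mitochondria of neurons, and some of these acids also inhibit histone deacetylases.

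Levels are log2 signals after background correction, set relative to the 75th percentile of the same array, so a level of 0 is that of a fairly bright probe and a difference of 1 is a 2-fold change. On the 8 young arrays 58.4% to 66.1% of spots were well above background, and the 75th percentiles ran from 626 to 1348. Array 1 of the deficient group stood apart, at 97.1 on the first principal component (29.5% of the variance) where the other young arrays lay between -26.2 and 26.0, and it correlated with them at 0.965 to 0.983, against 0.988 or more among the rest. All deficient arrays were on 1 slide and all wild-type arrays on another, in different slide rows at this age, so genotype and slide cannot be told apart. Of the markers fixed for the tissue, all 31 presynaptic, 20 astrocyte, 25 oligodendrocyte and 25 microglial genes were well above background on the 8 arrays. Precision is limited by the 4 arrays in a group.

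On none of the 16 arrays was the Slc5a8 probe itself well above background. It lies at chr10:88391888-88391947 (NCBI37/mm9), at position 4958 of the transcript. Its level was -6.96, -7.78, -7.32 and -7.01 on wild-type arrays 1 to 4 and -6.34, -7.61, -7.69 and -7.24 on deficient arrays 1 to 4. The groups overlapped, with means of -7.27 ± 0.38 and -7.22 ± 0.62 (SD, n = 4), 0.05 apart (exact permutation test, two-sided p = 0.886, where 0.0286 is the smallest this design allows). A probe that does not rise over background in wild-type whole brain, and whose place relative to the deletion is not given, checks nothing about the genotype labels.

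Which transcripts differed in young deficient brains was asked of 23004 genes with limma's fit of the 4 groups, and a gene is called, or said to have risen or fallen, when its p after Benjamini-Hochberg adjustment fell below 0.05. In all, 353 genes (1.53% of those tested) were called, 155 higher (0.674%) and 198 lower (0.861%) in the deficient brains. The median difference of all genes was 0.02. Of the called genes 63 rose and 53 fell by more than 2-fold, and 22 rose and 14 fell by more than 4-fold. The 4 arrays of one genotype all lay above the 4 of the other for 153 of the called rises and 193 of the called falls, against 4.64% of all genes with the deficient arrays above, 4.81% with them below and 9.45% either way. An unadjusted p was under 0.05 for 17.4% of all genes. The count depended on the arrays: without wild-type array 1, 2, 3 or 4 the fit called 108, 136, 175 or 196 genes, without deficient array 1, 2, 3 or 4 it called 281, 223, 211 or 350, and from the 8 young arrays alone it called 74, of which 70 are among the 353. Of the named genes that stayed called without each array in turn, Comp, Myl1, Klhl26, Trappc4, Cmtm8, Bcat2, Sh3d19, Slc22a15, P2rx7, Vps33a, Ccl9 and Spag16 were not called from the 8 young arrays alone (adjusted p from 0.0536 for Myl1 to 0.147 for Trappc4). The mean of a gene's probes ended the calls of Lpl, Sorl1, Oxsr1, Cirbp, Tdg, Sh3d19, Nras, P2rx7, Diablo, Irgm1, Dnaja1, Ocln and Ldb3 (adjusted p from 0.0653 for Ocln to 0.34 for Ldb3). A core of 48 genes, 25 higher and 23 lower, was called in all 17 alternative fits that tested them. Differences are given as log2 difference ± SE of that fit, with n = 4 arrays per group, and 119 of the called genes, known only by clone, model or probe numbers, are counted but not named.

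**Figure D1:**
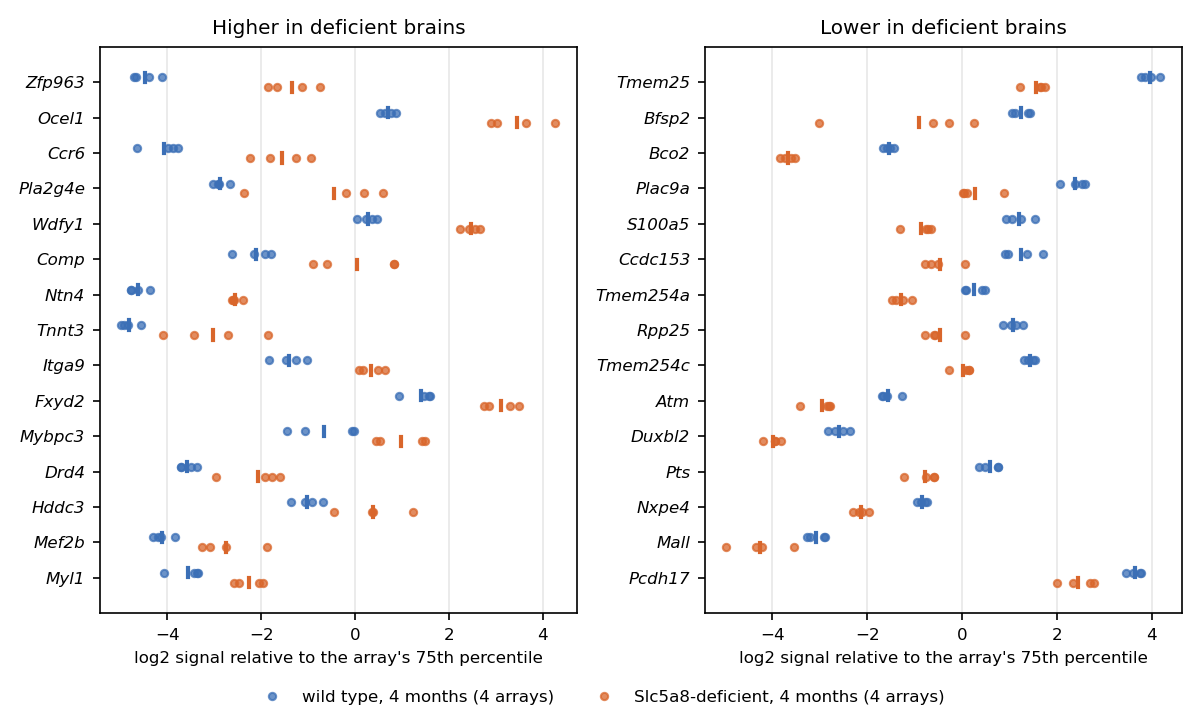
Levels of the 15 largest rises and the 15 largest falls among called genes well above background on all 8 young arrays, whose groups do not overlap. Each point is 1 array (blue wild type, orange deficient), short bars are group means, and the x axis is log2 signal relative to the array's 75th percentile. Zfp963, Ocel1 and Wdfy1 stand clear of the wild-type arrays on all 4 deficient arrays, whereas Pla2g4e, Bfsp2 and Tnnt3 spread widely among the deficient arrays.

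Genes above background on all 8 young arrays are called bright here. The 15 rises and 15 falls named as largest were picked among called bright genes whose groups do not overlap. Their lack of overlap is thus no further evidence. The largest rise among them was that of Zfp963, a zinc finger gene. Its level was -4.66, -4.12, -4.39 and -4.71 on the wild-type arrays and -1.14, -1.86, -1.67 and -0.74 on the deficient arrays, an 8.69-fold rise (3.12 ± 0.25, adjusted p = 1.23e-05). Ocel1, which carries an occludin-like domain, stood at 0.53, 0.63, 0.77 and 0.88 in wild type against 4.27, 3.03, 2.91 and 3.64 (2.76 ± 0.28). Every deficient array lay above every wild-type array by more than 2 log2 units for both genes. A second probe of Ocel1, about 6 kb away on the same chromosome, was lower in the deficient brains and did not pass the test (-1.28 ± 0.33, adjusted p = 0.0698); the rise was thus measured at the brighter probe alone. Wdfy1, a phosphoinositide-binding endosomal protein, was at 0.37, 0.46, 0.24 and 0.03 in wild type and at 2.24, 2.67, 2.55 and 2.43 in deficient brains (2.19 ± 0.18, adjusted p = 1.59e-05). Its 4 probes disagreed as well: one near the first rose by 1.90 ± 0.28, another fell by 1.04 ± 0.19, and the last differed by 0.30 ± 0.14 without passing.

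The chemokine receptor Ccr6, which guides lymphocytes and dendritic cells, was at -4.64, -3.87, -3.97 and -3.78 in wild type against -1.25, -1.81, -0.94 and -2.24 (2.51 ± 0.38, adjusted p = 0.00429). Ntn4, a netrin of basement membranes with roles in vessels and axons, was at -4.62, -4.77, -4.78 and -4.37 in wild type against -2.62, -2.40, -2.61 and -2.57 (2.08 ± 0.13, adjusted p = 1.36e-06). Both genes were in the core of 48. Itga9, an integrin subunit that binds matrix proteins such as tenascin, was higher by 1.75 ± 0.21 and Fxyd2, a regulatory subunit of the sodium pump, by 1.70 ± 0.20, with a second Fxyd2 probe at 1.60 ± 0.16. The matrix protein Comp (2.16 ± 0.34), the phospholipase Pla2g4e (2.43 ± 0.45) and the dopamine receptor Drd4 (1.51 ± 0.28) rose too, Comp without a call from the 8 young arrays alone (adjusted p = 0.103). Pla2g4e varied most among these: its deficient arrays lay at 0.18, -2.37, -0.19 and 0.59, array 2 close to the wild-type arrays at -3.03, -2.90, -2.92 and -2.67. Pla2g4e was no longer called without wild-type array 1 (adjusted p = 0.0533), nor Drd4 without wild-type array 1 or 2 (adjusted p of up to 0.0545).

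Tnnt3, the fast skeletal troponin T, was higher by 1.81 ± 0.38 (adjusted p = 0.0305), and its deficient arrays ranged from -4.08 to -1.85 over wild-type arrays between -4.98 and -4.57. A second Tnnt3 probe did not pass (1.31 ± 0.35, adjusted p = 0.079). Mybpc3, the cardiac myosin-binding protein C, was higher by 1.63 ± 0.35, Myl1, a fast myosin light chain, by 1.29 ± 0.18, and the muscle and lymphoid transcription factor Mef2b by 1.38 ± 0.26. Mef2b and Myl1 were dim in wild type, at -4.31, -4.19, -4.13 and -3.84 and -4.08, -3.38, -3.36 and -3.42. Of the 4 genes only Myl1 stayed called without each array in turn (adjusted p of up to 0.0127). Tnnt3 lost its call without any one wild-type array or deficient array 3 (up to 0.0874), Mybpc3 without wild-type array 1 or 2 or deficient array 1 or 4 (up to 0.113), and Mef2b without wild-type array 1 or 2 (up to 0.0574). Hddc3, a nucleotide hydrolase, completed the 15 rises (1.40 ± 0.27, adjusted p of up to 0.0695 without wild-type array 1, 2 or 3).

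The largest fall among bright genes was that of Tmem25, a neuronal membrane protein of the immunoglobulin superfamily. It was at 3.78, 3.86, 3.98 and 4.18 in wild type and 1.21, 1.75, 1.65 and 1.66 in deficient brains, 5.22-fold lower (-2.38 ± 0.32, adjusted p = 0.00143). Bco2, the mitochondrial enzyme that cleaves carotenoids, was at -1.58, -1.43, -1.66 and -1.51 in wild type against -3.60, -3.84, -3.51 and -3.73 (-2.13 ± 0.29). Pts, which makes the precursor of tetrahydrobiopterin, the cofactor of the enzymes that start dopamine and serotonin synthesis, was at 0.76, 0.76, 0.49 and 0.36 in wild type against -1.22, -0.75, -0.60 and -0.58 (-1.38 ± 0.15, adjusted p = 0.000201). All 3 were called in every alternative fit. Atm, the kinase that senses DNA double-strand breaks, differed by -1.41 ± 0.15, with a second probe at -0.69 ± 0.18 (adjusted p = 0.0739). Rpp25, a subunit of ribonuclease P, differed by -1.55 ± 0.23 and Nxpe4 by -1.29 ± 0.12, both in the same core.

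The remaining falls were less even. Bfsp2, a filament protein of the lens, was at 1.43, 1.12, 1.04 and 1.39 in wild type and -3.02, -0.27, 0.26 and -0.62 in deficient brains, deficient array 1 standing far below the rest (-2.16 ± 0.49, adjusted p = 0.043). Ccdc153, a coiled-coil protein of ciliated cells, differed by -1.70 ± 0.31, the protocadherin Pcdh17 by -1.19 ± 0.24 and Mall, a raft-associated membrane protein, by -1.20 ± 0.24. Without wild-type array 1 none of these 4 genes was called. Bfsp2 lost its call also without deficient array 2 or 4 or any other wild-type array, Pcdh17 without deficient array 1 or 3 or any other wild-type array, and Mall without wild-type array 2 or 4. Their highest adjusted p without 1 array was 0.119 for Bfsp2, 0.053 for Ccdc153, 0.0708 for Pcdh17 and 0.0696 for Mall.

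A few called transcripts were above background on all 4 young arrays of one genotype and on none of the other. They were picked for this pattern, and a gene that shows it had to differ, so the pattern is no further evidence. Arhgap33os, an antisense transcript, was at -7.12, -7.09, -6.31 and -6.16 in wild type, where no array was well above background, and at -2.98, -4.20, -3.26 and -3.00 in deficient brains. That is at least 5.93-fold higher (adjusted p = 5.69e-05), the bright group being set against the lowest signal that still counts as above background. In the same sense the tubulin ligase-like Ttll2 was at least 2.78-fold, Ccdc194 at least 1.85-fold and the actin-like Actl9 at least 1.71-fold higher. In the other direction Ppcdc, which makes phosphopantetheine on the way to coenzyme A, was at -3.95, -3.49, -4.08 and -4.61 in wild type and -7.21, -7.30, -7.48 and -8.15 in deficient brains, at least 3.91-fold lower (adjusted p = 0.00285). The ErbB4 ligand Nrg4 was at least 2.24-fold lower, and the interferon-inducible pseudogene Ifi203-ps, whose relatives are near-identical and may share its signal, at least 1.66-fold lower. Arhgap33os and Ppcdc were called in every alternative that tested them. Actl9 was called without wild-type array 4 only, Nrg4 without deficient array 4 only, and Ifi203-ps without deficient array 3 or 4 only, with adjusted p of up to 0.147, 0.0875 and 0.113 without the others. With normexp background correction Ttll2, Ccdc194, Actl9, Nrg4 and Ifi203-ps were not called. The folds given as lower bounds hold for this processing only, as alternative fits gave smaller differences. The smallest log2 difference in any fit, sign left out, was 1.19 for Arhgap33os, 0.75 for Ttll2, 0.60 for Ccdc194 and 0.30 for Actl9. It was 0.83 for Ppcdc, 0.57 for Nrg4 and 0.27 for Ifi203-ps.

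Called genes were unevenly spread over the chromosomes. Chromosome 9 held 44 called genes, 3.72% of those tested on it, followed by chromosome 17 (2.46%), chromosome 10 (2.42%) and chromosome 8 (2.38%), while chromosome 16 had the lowest share of the autosomes, 0.556%. In windows of 10 Mb, 15 windows held at least 5 called genes, and these windows held 123 of the 353 calls among 2025 genes tested (6.07%), against 1.1% elsewhere. Windows chosen for their calls have a high share by construction, so this is a description and not a test. Neighbouring probes can read 1 transcript, and neighbours in a window are not independent.

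**Figure D2:**
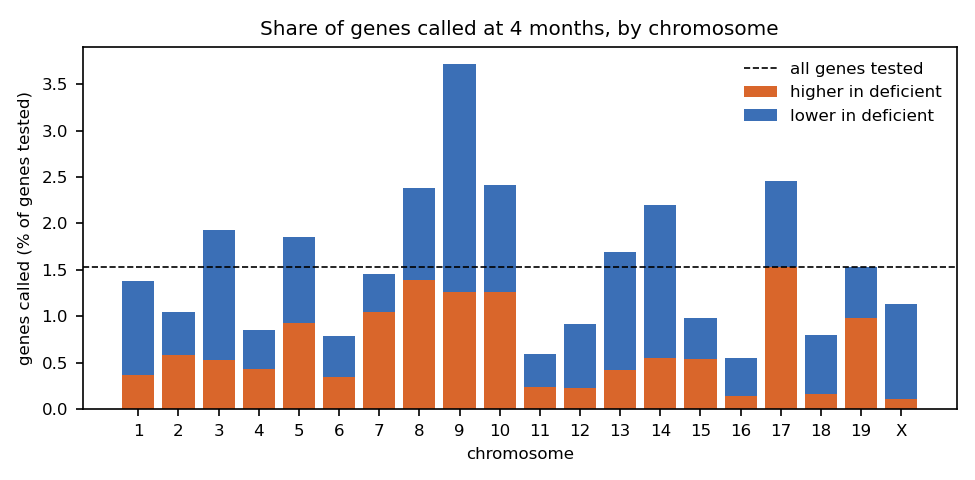
Share of the genes tested on each chromosome that were called at 4 months, split into genes higher (orange) and lower (blue) in deficient brains. The dashed line is the share over all genes tested (1.53%). Chromosome 9 is the highest bar (3.72%) and most of it is genes that were lower.

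On chromosome 8, from 70 to 80 Mb, 18 of 167 genes were called (10.8%), 15 of them higher. Zfp963, Mef2b, Comp, Ocel1 and Ccdc194, described above, lie here, all between 71.4 and 74.7 Mb together with the rest of the named calls. The lipoprotein lipase Lpl rose by 1.21 ± 0.23, although its second probe differed by 0.16 ± 0.19 without passing. Klhl26 rose by 0.91 ± 0.14, Plvap, the diaphragm protein of fenestrated endothelium, by 1.10 ± 0.24, and Il12rb1, an interleukin receptor subunit, by 0.75 ± 0.14. Smaller rises were those of Gtpbp3 (0.75), Ssbp4 (0.64), Rfxank (0.54), a factor of the MHC class II promoter, and Jund (0.48), a subunit of AP-1. The tropomyosin Tpm4 and the zinc finger gene Zfp709 fell (-0.39 and -0.68). Without single arrays, wild-type array 1 or 2 among them for each, calls were lost for Lpl, Rfxank, Ssbp4, Jund, Il12rb1, Gtpbp3, Plvap, Zfp709 and Tpm4 (adjusted p of up to 0.131, for Tpm4 without wild-type array 3), while Klhl26 stayed called. At 18 months 12 genes of this window were called, 8 of them genes called at 4 months.

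Chromosome 9 carried a longer stretch with both directions. From 40 to 50 Mb 17 of 118 genes were called (14.4%, 11 lower), and from 50 to 60 Mb 13 of 147 (8.84%, 8 lower). Fxyd2, which rose, lies here too. Besides Ccdc153, Tmem25, Nxpe4, Pts, Bco2, Atm, Nrg4, Ppcdc and Rpp25, the falls here took in Sc5d, an enzyme of cholesterol synthesis. Its level was 2.40, 2.38, 2.43 and 2.38 in wild type and 1.25, 1.32, 1.35 and 1.56 in deficient brains (-1.03 ± 0.10, adjusted p = 5.43e-05). Cryab, the small heat shock protein alphaB-crystallin of oligodendrocytes and astrocytes, was at 5.45, 5.13, 5.44 and 5.66 in wild type against 4.61, 4.37, 4.15 and 3.95 (-1.15 ± 0.17), and its second probe at -1.04 ± 0.21 was called too. Both genes held in every alternative, and their groups did not overlap, as for most called genes. Bcl9l, a Wnt coactivator (-1.09), the serine protease Tmprss4 (-1.97, above background on 1 of the 4 deficient arrays), the trafficking subunit Trappc4 (-0.51) and Poglut3 (-0.55) fell, while Sorl1, a sorting receptor for the amyloid precursor protein (0.998), Zbtb16 (0.91) and Nkapd1 (0.53) rose. The second Sorl1 probe was lower and not called (-0.42 ± 0.11, adjusted p = 0.0738). Farther along, from 110 to 120 Mb, Itga9 rose and Trim71 (-1.03), Cmtm8 (-0.72) and Oxsr1 (-0.57) fell. A second probe of Oxsr1 differed by -0.02 ± 0.17 (adjusted p = 0.973). Trim71 was above background on 3 of the 4 deficient arrays and was not called with normexp background correction (-0.39, adjusted p = 0.153), nor was Cmtm8 from the 8 young arrays alone (adjusted p = 0.0742). Bcl9l, Tmprss4, Zbtb16, Nkapd1, Poglut3 and Oxsr1 were not called without wild-type array 1 (adjusted p of up to 0.139, for Poglut3). Tmprss4 was not called with normexp background correction or from the 8 young arrays alone either. Its smallest log2 difference in any fit, sign left out, was 0.49.

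The surroundings of Slc5a8 on chromosome 10 were examined on both sides. Within 10 Mb of the probe, 15 of 292 genes were called (5.14%), 10 higher and 5 lower. The nearest called genes lay 6.28 Mb before it and 3.15 Mb after it. The 86 genes tested between these hold no call by the choice of these bounds, and 1.53% of all genes were called. Their differences ran from -0.83 to 0.57. On the far side of that gap Nedd1, a centrosomal protein, was at -3.02, -3.09, -3.08 and -3.30 in wild type and -2.44, -2.28, -2.32 and -2.07 in deficient brains (0.85 ± 0.11), 3.76 Mb from Slc5a8. Ntn4 lay 4.82 Mb and Fgd6, an exchange factor for the GTPase Cdc42 that fell (-1.07 ± 0.11), 5.22 Mb away, followed by the mitochondrial ribosomal protein Mrpl42 (-0.45) at 6.57 Mb. On the near side Tdg, a DNA glycosylase that excises oxidised methylcytosine, fell (-0.77 ± 0.14), as did Zfp433 (-0.68), and the cold-inducible RNA-binding protein Cirbp rose (0.45, adjusted p = 0.0474). The other probes of Tdg differed by -0.35 ± 0.22 (adjusted p = 0.44) and 0.08 ± 0.19 (adjusted p = 0.866), and a second probe of Cirbp by 0.11 ± 0.22 (adjusted p = 0.83), so both calls rest on the brightest probe. Another 8 called features here carry only numbers, among them the probe 3.15 Mb from Slc5a8, which was above background on all 4 deficient and 2 of the 4 wild-type arrays. Also among them are overlapping probes 6.53 Mb before Slc5a8, higher by 1.62, 1.66 and 1.71, which may read the same transcript. The counts of this paragraph, those at 18 months included, therefore hold features that are not separate genes. At 18 months 14 of the 15 differed in the same direction and 10 were called. Those mice are other animals on the same slides. Tdg lost its call without wild-type array 2 (adjusted p = 0.0514), Cirbp without any one array (up to 0.122), Zfp433 without any one array but deficient array 4 (up to 0.123) and Mrpl42 without any one array but deficient array 4 or wild-type array 4 (up to 0.104).

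**Figure D3:**
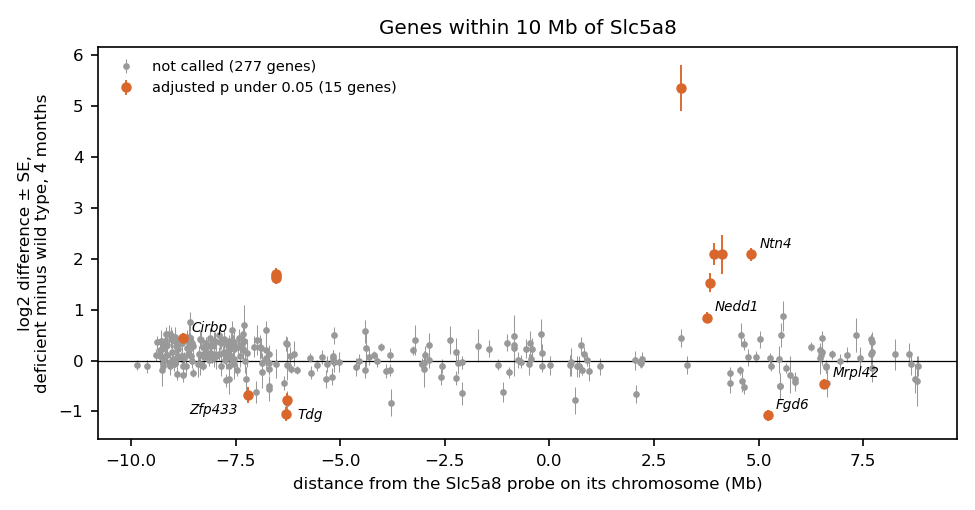
Log2 difference (deficient minus wild type at 4 months) ± SE of the 292 genes within 10 Mb of the Slc5a8 probe, by distance from it. Orange points passed an adjusted p of 0.05 (15 genes), grey points did not. The nearest called genes lie 6.28 Mb before and 3.15 Mb after the probe. The largest differences lie beyond 3 Mb on the right, and differences of 1.62 to 1.71 lie 6.53 Mb before the probe.

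On chromosome 14, a group of neighbours fell together at 4 months. Plac9a, a small secreted protein, was at 2.38, 2.06, 2.52 and 2.58 in wild type and 0.88, 0.11, 0.02 and 0.04 in deficient brains (-2.12 ± 0.31), and its second probe gave -2.41 ± 0.25. The transmembrane gene Tmem254a was at 0.06, 0.42, 0.48 and 0.08 in wild type against -1.38, -1.47, -1.06 and -1.24, its copy Tmem254c at 1.39, 1.31, 1.50 and 1.54 in wild type against -0.28, 0.14, 0.09 and 0.15, and the homeobox gene Duxbl2 at -2.68, -2.51, -2.36 and -2.82 in wild type against -4.20, -3.95, -3.83 and -3.94. The 4 genes lie between 26.7 and 26.9 Mb in a stretch of tandem copies, so the signal cannot be assigned to 1 copy. Of the same window, from 20 to 30 Mb, 6 of 101 genes were called (5.94%), all lower, including Lrmda, a melanosome protein (-2.17 ± 0.27, above background on 3 of the 4 deficient arrays), and the basement membrane protein Nid2 (-0.62). For Lrmda the smallest log2 difference in any fit, sign left out, was 0.90. The next window held falls of Chdh, which oxidises choline (-0.82), and Ldb3 (-0.56), and rises of the retinoid carrier Rbp3 (0.58) and of Opn4, the photopigment melanopsin. Opn4 was above background on 1 of the 4 wild-type arrays, and its rise of 2.23 was 0.88 with normexp background correction and 1.07 in the deposited table, called in each. A second probe of Ldb3 differed by 0.00 ± 0.22 (adjusted p = 1), so that fall was measured at the brighter probe alone. Nid2, Chdh, Rbp3 and Ldb3 were not called without wild-type array 1, nor without several other single arrays (adjusted p of up to 0.124, 0.0684, 0.13 and 0.108).

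Smaller groups of calls lay on chromosomes 17, 7, 3 and 5. From 10 to 20 Mb of chromosome 17, 9 of 102 genes were called (8.82%): the organic cation transporter Slc22a2 rose by 0.68 ± 0.15 and Phf10, of a chromatin remodelling complex, fell (-0.58). Ccr6, Ttll2 and the dynein light chain Dynlt1c (0.59) rose on the same chromosome before 10 Mb. Near the kallikreins of chromosome 7 the fucosyltransferase Fut1 (2.53 ± 0.42, above background on 2 of the 4 wild-type arrays), Bcat2, which starts the breakdown of branched-chain amino acids (1.13 ± 0.19), and Mamstr (0.77) rose. For Fut1 the smallest log2 difference in any fit was 1.09. On chromosome 3 the glutamate receptor subunit Gria2 (-0.66), Sh3d19 (-0.91), Kirrel (-0.45), Phtf1 (-0.79) and the GTPase Nras (-0.50) fell, and Fcrl5 (0.78) and Slc22a15 (1.10) rose. On chromosome 5 Oas2, P2rx7, the ATP-gated channel of microglia (-0.78), and Diablo (-0.37) fell and Vps33a (0.54) rose. Of these, Fut1, Bcat2, Sh3d19, Slc22a15, P2rx7 and Vps33a stayed called without each array in turn, and the other named genes of chromosomes 3, 5 and 7 and Slc22a2 and Phf10 did not, nor did Dynlt1c (adjusted p of up to 0.133, for Mamstr without wild-type array 2). Second probes of Nras, Diablo, Sh3d19 and P2rx7 gave differences between -0.53 and 0.12 that did not pass.

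The kallikrein gene Klk1b22 gave the largest difference among the called genes with a gene name. Mouse tissue kallikreins are serine proteases encoded by a tandem array of close paralogs on chromosome 7, and the probes of the pair that rose are shown because they overlap in sequence. Each line gives the probe 5′ to 3′ with capitals for the longest stretch that the pair shares, at chr7:51371648-51371707 for Klk1b22 and chr7:51457064-51457122 for Klk1b3 (NCBI37/mm9):
Klk1b22: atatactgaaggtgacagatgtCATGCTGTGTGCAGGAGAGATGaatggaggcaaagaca
Klk1b3: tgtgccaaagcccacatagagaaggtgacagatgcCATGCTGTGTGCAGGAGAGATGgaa
The capitals are 22 bases long, and over the 47 bases in which the 2 probes can be laid side by side 41 are the same, so RNA of one gene, or of another paralog, may bind to both probes. Klk1b22 was at -6.18, -5.93, -5.60 and -6.43 in wild type and -0.44, -1.13, -0.72 and -3.71 in deficient brains (4.54 ± 0.93, adjusted p = 0.0275). Klk1b3 was at -5.69, -5.26, -5.26 and -4.84 in wild type against -1.64, -2.09, -1.88 and -3.96 (2.87 ± 0.58, adjusted p = 0.0258). In both genes deficient array 4 was well below the other deficient arrays and still above every wild-type array, and the wild-type level was above background on 2 arrays for Klk1b22 and 3 for Klk1b3. Of 25 kallikreins listed, 12 passed the filter and 7 were above background on all 8 young arrays. A gene that passed through the group where it is high had to differ, so no direction is read from the list. Klk1b8 (0.88 ± 0.25, adjusted p = 0.0934) and Klk1b24 (1.13 ± 0.39, adjusted p = 0.151) did not pass the test. Klk1b22 lost its call without any one array but deficient array 4, and Klk1b3 without any one array but deficient array 4 or wild-type array 4 (adjusted p of up to 0.0767 for Klk1b22 and 0.0833 for Klk1b3). The smallest log2 difference in any fit was 2.57 for Klk1b22 and 1.65 for Klk1b3, so their sizes depend on the processing.

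The remaining results are by gene list. The 29 lists described here held 657 measured genes, of which 29 were called (4.41%), 8 higher and 21 lower, beside 1.53% of all genes. The lists were chosen with results of these data in view, so that this share says nothing particular about them. A list median is the median of its members' differences, to be read against 0.02 for all genes. Counts at an unadjusted p under 0.05 are to be read against the 17.4% of all genes that reached it in limma's fit.

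Genes that move or burn the substrates of the transporter held no call. Of 16 monocarboxylate transporters and partners measured, there were 8 higher and 8 lower (median -0.01), and 0 passed the test, 4 having an unadjusted p under 0.05. Slc16a1, the lactate transporter of endothelium and glia, differed by 0.62 ± 0.18 (adjusted p = 0.0977), Slc16a13 by 0.34 ± 0.09, Slc16a14 by 0.67 ± 0.19 and Slc16a12, a creatine carrier, by -0.78 ± 0.27 (adjusted p from 0.0872 to 0.16). Of 27 genes of glucose uptake, glycolysis and lactate, there were 17 higher and 10 lower with 0 called and 4 at an unadjusted p under 0.05. Pdk2, a kinase that holds back pyruvate dehydrogenase, differed by 0.51 ± 0.13 (adjusted p = 0.0687) and the neuronal enolase Eno2 by 0.31 ± 0.10. The list's level on deficient array 1, 0.24 above the genes' mean over all 16 arrays, was higher than on the other deficient arrays, at 0.01 to 0.04. Of 23 genes of ketone body use and fatty acid oxidation there were 17 higher and 6 lower, 0 called and again 4 at an unadjusted p under 0.05, with Bdh2 at -0.46 ± 0.14 and Acads at 0.38 ± 0.13. Respiratory chain subunits were 22 higher and 9 lower (median 0.10, 0 called, 1 at an unadjusted p under 0.05). A p above the threshold does not show that these genes were unchanged.

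In neighbouring pathways single enzymes stood out. Of 9 genes of coenzyme A synthesis, Ppcdc was the called one and the others, which did not pass, ran from -0.24 to 0.30. Of 22 genes of cholesterol synthesis there were 16 higher and 6 lower, and the called member, Sc5d, was among the falls, against the direction of Insig1 (0.51 ± 0.15, adjusted p = 0.0991) and Mvd (0.65 ± 0.23, adjusted p = 0.167), which did not pass. Both Ppcdc and Sc5d lie in the stretch of chromosome 9 described above.

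Genes of protein folding were mostly lower. In the unfolded protein response, by which the endoplasmic reticulum raises its chaperones, 28 genes were measured, 6 higher and 22 lower in the deficient brains (median -0.19), and 2 fell: the secreted factor Manf, at 2.97, 2.61, 2.26 and 2.16 in wild type and 1.60, 1.78, 1.77 and 1.96 in deficient brains (-0.72 ± 0.16, adjusted p = 0.0362), and the chaperone partner Dnajb11, at 3.02, 2.96, 2.84 and 3.02 in wild type against 2.49, 2.66, 2.50 and 2.70 (-0.37 ± 0.08, adjusted p = 0.0377). The groups of both genes did not overlap, as for most called genes, and the gap between them was small. Edem1 (-0.48 ± 0.12, adjusted p = 0.0581) and Pdia3 (-0.33 ± 0.08, adjusted p = 0.0614) did not pass. At 18 months the list's median was 0.09. Manf lost its call without wild-type array 1 or 2 or deficient array 1, 2 or 3 (adjusted p of up to 0.101), and Dnajb11 without any one array but deficient array 4 (up to 0.114). The list's median ran from -0.23 without wild-type array 4 to -0.16 without deficient array 1.

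The 250 bases before the starts of genes of the unfolded protein response list were searched for the endoplasmic reticulum stress element. It is spelled CCAAT, any 9 bases and CCACG, and both strands were read. RefSeq promoter sequences (GRCm38.p6) matched 25 of the 28 measured members by symbol. The element occurred in a promoter of 7 of the 25 genes, and in 37 of 32851 promoters in the table (0.113%). The first count is of genes and the second of promoters. The list was made of genes of this response, so the shares are no test and do not bear on the differences. It is shown in capitals for Hspa5, which encodes the main chaperone of the compartment (chr2:34771840-34772089, plus strand), and Hsp90b1, its partner, which carries 2 copies in opposite orientation (chr10:86705445-86705694, minus strand):
Hspa5: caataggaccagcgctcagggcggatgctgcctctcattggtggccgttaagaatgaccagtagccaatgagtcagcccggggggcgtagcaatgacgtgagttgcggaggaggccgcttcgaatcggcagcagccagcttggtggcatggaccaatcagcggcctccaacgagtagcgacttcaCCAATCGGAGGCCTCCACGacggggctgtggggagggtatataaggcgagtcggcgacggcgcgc
Hsp90b1: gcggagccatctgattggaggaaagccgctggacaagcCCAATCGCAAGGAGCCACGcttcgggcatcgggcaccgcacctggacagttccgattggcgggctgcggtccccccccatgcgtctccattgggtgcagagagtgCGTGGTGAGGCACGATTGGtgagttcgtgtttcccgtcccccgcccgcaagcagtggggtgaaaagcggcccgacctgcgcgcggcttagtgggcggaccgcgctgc
The 7 genes, named for the element after their values had been seen, differed by -0.52 (Hspa5), -0.37 (Pdia6), -0.34 (Hsp90b1), -0.31 (Creld2), -0.19 (Dnajc3), -0.11 (Calr) and 0.11 (Canx), and none was called. The small differences moved with single arrays: without 1 array Dnajc3 ran from -0.27 to -0.02 (without deficient array 1), Calr from -0.27 to -0.05 and Canx from 0.04 to 0.14. A match is a description of the letters in this window and says nothing of what binds there.

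Heat shock proteins and chaperones of the cytosol were 8 higher and 20 lower (median -0.11). Cryab and Dnaja1, a partner of Hsp70 (-0.39 ± 0.09, adjusted p = 0.0427), fell, and Hspb6, a small heat shock protein of muscle and glia, rose from 0.65, 0.39, 0.75 and 0.61 in wild type to 1.88, 1.12, 1.31 and 1.42 in deficient brains (0.83 ± 0.17). Dnajb4 did not pass (-0.51 ± 0.12, adjusted p = 0.05), and a second probe of Dnaja1 differed by -0.01 ± 0.09. Of 34 proteasome subunits Psmd14, the deubiquitinase of the lid, was the called one (-0.53 ± 0.11). Dnaja1 lost its call without any one array, Hspb6 without wild-type array 1, 2 or 4, and Psmd14 without wild-type array 1, 2 or 4 or deficient array 1 or 2 (adjusted p of up to 0.112, 0.0796 and 0.0897).

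Among immune genes, interferon-stimulated genes were 8 higher and 29 lower (median -0.19), 3 of 37 being called. Their list stood at 0.24, -0.11, 0.02 and 0.07 on the wild-type arrays and -0.16, -0.19, -0.09 and -0.17 on the deficient arrays, which overlap. At 18 months the median of this list was 0.02. The antiviral synthetase Oas2 was at -2.24, -2.69, -2.86 and -2.74 in wild type and -3.30, -3.40, -3.51 and -3.74 in deficient brains (-0.86 ± 0.17, adjusted p = 0.0222). The GTPase Irgm1 (-0.48 ± 0.10, and -0.29 ± 0.19 with adjusted p = 0.449 at a second probe) and Ifi27l2a (-0.75 ± 0.17) fell as well, and Bst2, which tethers virions, did not pass (-0.76 ± 0.20, adjusted p = 0.0687). Oas2 lost its call without wild-type array 1 or 2 or deficient array 3, Irgm1 without any one array but deficient array 1, and Ifi27l2a without any one array but wild-type array 2 (adjusted p of up to 0.0688, 0.111 and 0.122). Chemokines and their receptors were 13 higher and 18 lower: beside the rise of Ccr6, the mucosal chemokine Ccl28 fell by a wide and uneven margin, from -3.43, -3.81, -3.31 and -3.94 to -7.23, -4.72, -6.14 and -6.45 (-2.51 ± 0.48), and the myeloid chemokine Ccl9 from -1.82, -1.57, -1.51 and -1.58 to -2.16, -2.68, -2.41 and -2.72 (-0.87 ± 0.15, adjusted p = 0.0118). Ccl28 was well above background on 1 of the deficient arrays and was not called without wild-type array 1 or 3 (adjusted p of up to 0.0613), while Ccl9 stayed called without each array. Microglial genes were split evenly, 12 higher and 13 lower (median -0.01). The factor Sall1 (-0.45 ± 0.10) and Ly86, a partner of the receptor Cd180 (-0.65 ± 0.14), fell, and Fcrls did not pass (-0.81 ± 0.22, adjusted p = 0.0812). Both calls were lost without any one array but deficient array 2 (adjusted p of up to 0.1 and 0.0998). In bulk brain, fewer cells of a type and less RNA per cell cannot be told apart.

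Among circadian clock genes 1 fell. Per2, a repressor of the clock, was at -1.22, -0.995, -1.45 and -1.41 in wild type and -2.08, -2.15, -2.58 and -2.29 in deficient brains (-1.01 ± 0.14, adjusted p = 0.0017), and was called in all 17 alternatives. Of the 20 clock genes measured there were 10 higher and 10 lower, with 7 at an unadjusted p under 0.05. Nr1d1, which represses Bmal1 and peaks away from the Per genes, was higher by 0.97 ± 0.26 without passing (adjusted p = 0.077), with levels of 0.03, -0.35, -0.25 and -0.12 in wild type and 1.68, 0.40, 0.44 and 0.66 in deficient brains, while Per1 (-0.49 ± 0.14) and Bhlhe40 (-0.53 ± 0.17) were lower without passing. The hour of dissection is not given in the labels, and its part in these differences was not tested. Glucocorticoid-responsive genes, 4 higher and 14 lower, had 1 call, a rise of Zbtb16 (0.91 ± 0.18, not called without deficient array 2 or wild-type array 1 or 4, adjusted p of up to 0.0561). Immediate early genes, which neurons switch on within minutes of firing, were 7 higher and 24 lower (median -0.35). Their list stood at -0.74, 0.09, -0.08 and -0.50 on the deficient arrays and -0.31, 0.25, 0.05 and 0.08 on the wild-type arrays, with deficient arrays 1 and 4 the lowest of the 8, and without array 1 the median was -0.11. The called member, Jund, rose (0.48 ± 0.09), and Egr1 (-0.71 ± 0.18, adjusted p = 0.0613) and Sik1 (-0.61 ± 0.21, adjusted p = 0.154) did not pass.

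Neuronal and synaptic lists held 2 calls. Presynaptic and neuronal genes were 27 higher and 4 lower (median 0.16), and 1, the complexin Cplx1 that clamps vesicle fusion, rose from 5.81, 5.86, 5.79 and 5.91 to 6.66, 6.38, 6.44 and 6.28 (0.60 ± 0.12), a call lost without wild-type array 1, 2 or 3 or deficient array 3 (adjusted p of up to 0.0657). The vesicle protein Syp differed by 0.57 ± 0.20 (adjusted p = 0.167), with deficient array 1 at 7.16 and the other deficient arrays at 6.17 to 6.27. Of 36 glutamate receptor and postsynaptic genes there were 19 higher and 17 lower, and Gria2, the AMPA receptor subunit that blocks calcium entry, fell from 0.14, -0.13, -0.13 and -0.30 to -0.89, -0.55, -0.77 and -0.84 (-0.66 ± 0.15, a second probe at -0.82 ± 0.24 not passing, adjusted p of up to 0.121 without 1 array, the call holding without deficient array 2 or wild-type array 4). Grm4, a metabotropic receptor of cerebellar granule cells, did not pass (0.59 ± 0.14, adjusted p = 0.056). For the scaffold gene Shank2 the probe used was at -0.76, -0.89, -0.65 and -0.65 in wild type and -6.52, -8.03, -8.61 and -2.21 in deficient brains (-5.61 ± 1.47, adjusted p = 0.0718), while its other probe, above background on all 16 arrays, differed by 0.13 ± 0.15.

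Glial and vascular lists held few calls. Astrocyte genes were 15 higher and 5 lower and myelin genes 11 higher and 14 lower, with 0 called in either and 2 and 7 at an unadjusted p under 0.05. Of 22 genes of endothelium and the blood-brain barrier there were 7 higher and 15 lower, and Ocln, the tight junction protein occludin, fell from -1.59, -2.04, -1.87 and -2.11 to -2.73, -2.58, -2.65 and -2.28 (-0.66 ± 0.13), a call lost without deficient array 2 or 3 or wild-type array 1 or 3 (adjusted p of up to 0.0664). A second Ocln probe did not pass (-0.69 ± 0.25, adjusted p = 0.181). Of 21 genes of pericytes, fibroblasts and meninges there were 13 higher and 8 lower, with Comp called.

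Lists of tissues that line or border the brain varied widely between single arrays. The 25 of 26 choroid plexus genes that passed the filter, 24 of them above background on all 8 young arrays, were lower in deficient brains (median -0.71), with 0 called and 9 at an unadjusted p under 0.05. The list stood at 1.57, -0.27, 0.44 and 0.40 on the wild-type arrays and -0.09, -0.03, 0.06 and -0.39 on the deficient arrays, so wild-type array 1 was far above the rest, and without it the median was -0.37. Cldn1 (-1.42 ± 0.39), Aqp1 (-0.98 ± 0.39), Kcnj13 (-0.93 ± 0.37) and Kcne2 (-1.09 ± 0.44) had adjusted p from 0.0847 to 0.223. The pituitary list was also highest on wild-type array 1, at 2.28. Ependymal and ciliary genes were 4 higher and 20 lower (median -0.36, and -0.23 without wild-type array 1), and the axonemal gene Spag16 fell from -3.70, -4.88, -4.52 and -4.87 to -6.36, -5.82, -5.67 and -5.95 (-1.46 ± 0.26, adjusted p = 0.0125), above background on 1 of the deficient arrays. Of 16 olfactory genes listed 15 were measured, 6 higher and 9 lower (median -0.04), and 2 fell. S100a5, a calcium-binding protein of olfactory sensory neurons, was at 1.24, 1.06, 0.93 and 1.54 in wild type against -1.31, -0.71, -0.66 and -0.76 (-2.05 ± 0.41), and Stoml3, a stomatin of their cilia, differed by -1.29 ± 0.29. Omp, the defining marker of these neurons, was lower on all 4 deficient arrays without passing (-2.05 ± 0.55, adjusted p = 0.078). S100a5 was not called without wild-type array 1, 2 or 4 or deficient array 1, nor Stoml3 without any one array but deficient array 4 (adjusted p of up to 0.072 and 0.111).

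At the other end of the brain, 17 of the 19 Hox genes of hindbrain and spinal cord listed passed the filter, 12 of them above background on all 8 young arrays. The other 5 were below background on at least 1 wild-type array and on none of the deficient arrays, so the filter favoured higher values in deficient brains and no direction is read from the list. None was called, and 4 had an unadjusted p under 0.05. Their list stood at -0.39, -0.01, 1.20 and 1.10 on the wild-type arrays and 0.78, 1.77, 2.16 and 2.46 on the deficient arrays, which overlap. Hoxb3 (1.13 ± 0.29), Hoxa4 (1.67 ± 0.45), Hoxa5 (2.01 ± 0.68) and Hoxd3 (1.55 ± 0.59) had adjusted p from 0.0701 to 0.194. Cerebellar genes were 16 higher and 3 lower (median 0.25, 0 called, 5 at an unadjusted p under 0.05), with Cbln1 at 0.57 ± 0.22 and Cbln3 at 0.65 ± 0.28, which were 0.37 and 0.40 without deficient array 4. Blood genes were 11 higher and 3 lower (0 called and 0 at an unadjusted p under 0.05 in limma's fit). The part that these tissues had in the gene differences above was not tested.

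**Figure D4:**
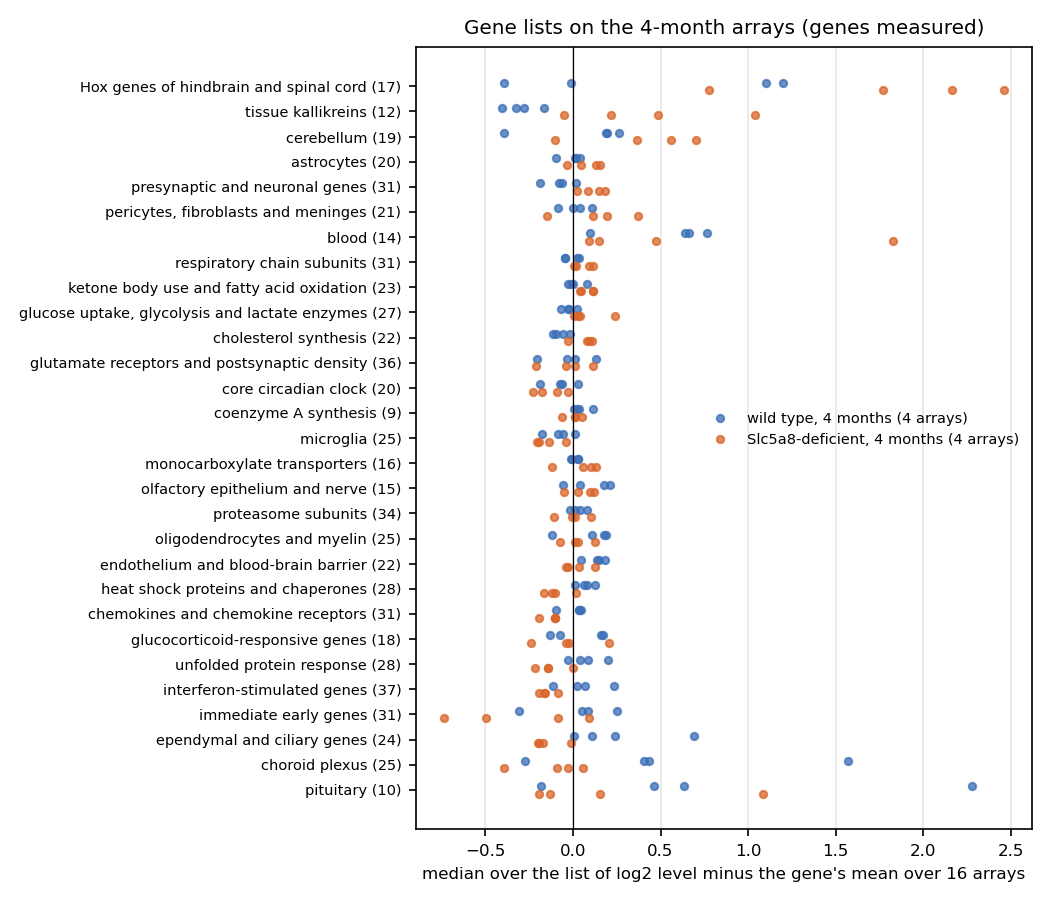
Median over each gene list of the log2 level relative to the gene's mean over all 16 arrays, 1 point per 4-month array (blue wild type, orange deficient), with the number of genes measured in brackets. Hox genes range from 0.78 to 2.46 on the deficient and from -0.39 to 1.20 on the wild-type arrays, wild-type array 1 is highest for choroid plexus (1.57) and pituitary (2.28), and the metabolic lists lie close to 0.

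The same genotypes at 18 months gave separate samples on the same slides. At 18 months 338 genes were called (1.47%), 0.917% higher and 0.552% lower. Of the 155 rises at 4 months 130 had the same direction at 18 months, 56 were called with it and another 4 were called lower. Of the 198 falls 151 had the same direction, 36 were called with it and another 2 were called higher. Zfp963, Ocel1, Ccr6 and Ntn4 differed by 2.89, 2.44, 2.72 and 1.82 at 18 months, and Ppcdc, Tmem25, Bco2 and Cryab by -2.93, -1.94, -1.71 and -1.17, all 8 called. The difference between the ages was itself tested, as the genotype difference at 4 months minus that at 18 months, and 43 genes passed (0.187%).

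**Figure D5:**
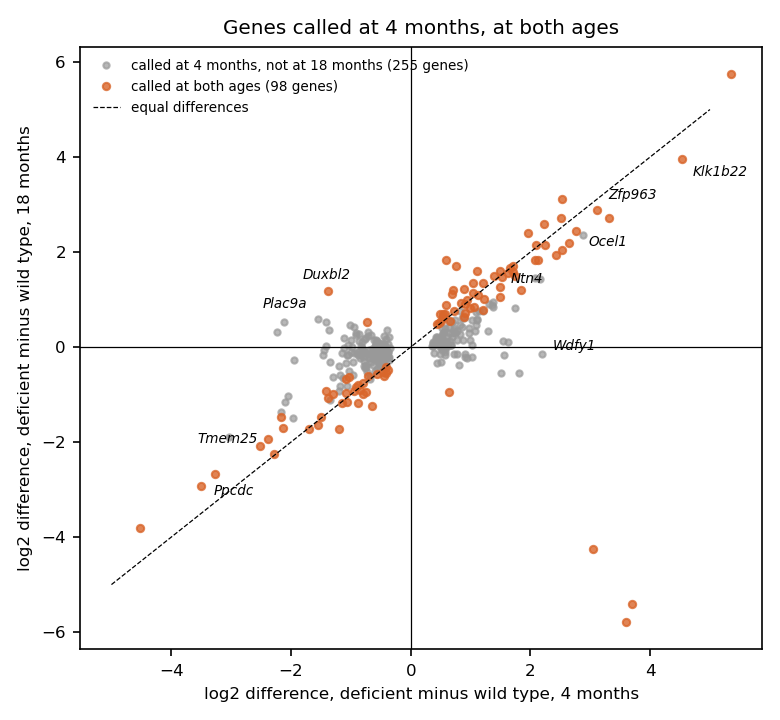
Log2 difference (deficient minus wild type) at 18 months against that at 4 months for the 353 genes called at 4 months. Orange points were called at both ages (98 genes, 6 of them in opposite directions), grey points at 4 months only (255), and the dashed line marks equal differences. Zfp963 and Ocel1 lie near that line, whereas Wdfy1 lies near 0 at 18 months and Duxbl2 on the opposite side.

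The rise of Wdfy1 differed with age (2.34 ± 0.26, adjusted p = 0.000564). At 18 months its levels were 2.53, 2.29, 2.61 and 2.48 in wild type and 2.42, 2.56, 2.67 and 1.67 in deficient brains, so the 4 young wild-type arrays were the low ones among all 16. The neighbours on chromosome 14 differed with age as well: Plac9a was at -0.11, 0.46, 0.14 and 0.24 in old wild type and -0.07, 0.09, 1.31 and 1.47 in old deficient brains, and the difference between the ages was -2.64 ± 0.44 (adjusted p = 0.0225) for Plac9a, -2.13 ± 0.37 for Tmem254a, -1.93 ± 0.33 for Tmem254c and -2.57 ± 0.33 for Duxbl2. Duxbl2, lower at 4 months, was higher in old deficient brains (1.18, adjusted p = 0.0182). Per2 differed with age too (-1.46 ± 0.19, adjusted p = 0.00254), and Dynlt1c rose more at 18 months (1.84 against 0.59, adjusted p = 0.00254 for the difference). Gpc2, a glypican, and the vomeronasal receptor gene Vmn1r104 passed the same test at signals mostly near background. Gpc2 was above background on 1 young wild-type, 3 young deficient, 4 old wild-type and 1 old deficient array, and Vmn1r104 on 0, 2, 4 and 0, so no size is given for their differences.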

How the data were processed

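Total RNA was labelled with Cy3 and hybridised to 1-colour Agilent arrays. Per the file headers, the authors deposited scanner output of Feature Extraction 10.7.3.1, with each spot's processed intensity already background-corrected, and probe coordinates on NCBI37/mm9. A deposited table of log2 values of the same arrays was an alternative, and the submitters' processing notes name limma, with no version. Outlier and control spots were left out and no spot was saturated. Each array's processed intensity was taken as log2 minus its 75th percentile, and spots of a probe were averaged (59305 spots, 55681 probes).

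A probe was kept when well above background on all 4 arrays of a group, and the brightest kept probe stood for its gene. Accessions of 27509 of 29150 probes matched RefSeq (GRCm38.p6), and 2421 symbols were updated from it. The 4 groups were fitted on all 16 arrays with limma 3.58.1 in R 4.3.3 (12 residual and 2.84 prior degrees of freedom) and p-values adjusted over 23004 genes at 0.05, after a check on simulated data. A second probe's p was adjusted over the 33071 kept probes. A lower-bound fold sets the bright group against the lowest signal well above background. The single-gene test of Slc5a8 used all 70 splits of the 8 arrays. The number of arrays limits the precision.

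Named were Slc5a8, the 15 largest rises and falls among called genes above background on all 8 young arrays without overlap, called genes above background in one young group only, the 8 largest called age differences, called list members and up to 4 list members of smallest p, and called genes in 10 Mb windows with at least 5 calls or within 10 Mb of Slc5a8. Names that are only numbers are not printed, and some genes within the rule are not reported here. The genotype contrast, the lists and the rule were chosen with earlier results of these data known. Alternatives were normexp background correction, quantile normalization, the deposited table, other filters, the mean of a gene's probes, array weights, the 8 young arrays alone, each array left out and the replicate number as a block.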

Additional observations from a re-analysis of the deposited data

Results flagged for a closer look

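In groups of 4 arrays, 1 array far from the other 3 (a gap above Dixon's 95% critical value) comes up by chance in about 1 of 20 groups. As 362 groups were looked at, many of the distant arrays below may be chance. Deficient array 1, which stood apart over all genes, was the distant array for Plac9a (0.88), S100a5 (-1.31), Tmem254c (-0.28), Atm (-3.43), Gtpbp3 (-2.37), Kirrel (-1.70), Cldn1 (-7.18), Syp (7.16), Eno2 (7.24), Calr (4.31) and the glycolysis list (0.24). Its part in those differences was not tested beyond leaving it out. Deficient array 2 was distant for Sorl1 (4.26) and Rbp3 (2.78), deficient array 3 for Ttll2 (-3.78), Slc22a2 (-2.67), the chemokine list (-0.19) and the ependymal list (-0.0088), and deficient array 4 for Ccdc194 (-4.90). Among wild-type arrays, array 1 was distant for Myl1 (-4.08), Phf10 (1.37) and Nid2 (-1.90), array 2 for Hoxd3 (-7.18), the chemokine list (-0.095) and the cerebellar list (-0.39), and array 4 for Slc22a15 (-1.06), Slc16a13 (-1.22) and Canx (5.09).

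The genotype difference at 4 months minus that at 18 months passed limma's interaction test for 9 of the genes named: Wdfy1 (2.34), Plac9a (-2.64), Tmem254a (-2.13), Tmem254c (-1.93), Duxbl2 (-2.57), Vmn1r104 (7.31), Gpc2 (6.70), Dynlt1c (-1.25) and Per2 (-1.46). Vmn1r104 was above background on 6 and Gpc2 on 9 of the 16 arrays, so the size of their values is not well measured. Both ages of a genotype were on 1 slide, in different slide rows.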

How the results depend on the processing

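Against 155 higher and 198 lower genes at 4 months, no filter on dim probes gave 72 and 70, the 8 young arrays alone 36 and 38, and array weights, which rate wild-type array 3 at 9.75 and deficient array 1 at 0.096, 2043 and 2016. With the replicate block the counts were 94 and 103; the replicate number equals the slide column, same-numbered arrays deviated together at correlations of -0.04, 0.27, 0.10 and -0.44, not every array correlated best with its own number, and it was not taken as a pairing. Single arrays left out gave 58 to 149 higher and 50 to 201 lower genes. At 18 months (211 higher, 127 lower), normexp gave 127 higher, no filter 80 lower and array weights 412 and 292. The replicate block gave 82 lower, and single arrays left out 114 to 210 higher and 64 to 116 lower. The 43 age differences became 22 without a filter, 821 with array weights, 25 with the replicate block and 21 to 65 without single arrays. The Slc5a8 difference of 0.05, below background throughout, was -0.077 after quantile normalization, -0.019 in the deposited table and -0.25 to 0.20 without single arrays (-0.25 without deficient array 1, -0.12 without wild-type array 2). Shank2, at -5.61, was 0.13 where only probes above background on all 16 arrays were kept, which takes its other probe. Of the 353 calls, 316 held after quantile normalization, 303 in the deposited table, 227 with normexp and 301 of the 302 tested above background on all 16 arrays. Of the called genes, 2 had the other sign as a mean of their probes. The fits without a filter tested more probes and those without an array had fewer samples, and otherwise the cause was not tested.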
